A study of Mus musculus with 8 samples.

Results

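The unfolded protein response and the ATF4 stress response of the liver were examined through 10 genes, Hspa5, Hsp90b1, Pdia4, Dnajb9, Sdf2l1, Xbp1, Atf4, Ddit3, Trib3 and Asns. They were found in the deposited count table by matching its Ensembl identifiers to gene symbols of GENCODE M21 on GRCm38. All 10 were among the 18095 genes of the table, and all 10 were among the 14866 genes that passed the filter on low counts. Liver RNA was sequenced from male mice 12 weeks of age on a HFD, with 4 libraries labelled HFD WT and 4 labelled HFD Inpp4b-/-. Both genotypes shared the diet, which was given to the dams from before mating and then to their pups, and low-fat livers were not analysed here. The knockout is constitutive, so every cell of the liver and of the other organs carries it. The labels give the background of both groups as C57BL/6, whereas the methods of the study give FVB, and each library is a whole-liver sample of mixed cells.

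The total was 25893430 to 31427831 counts in the HFD WT libraries and 32738435 to 36662531 counts in the libraries labelled HFD Inpp4b-/-. Inpp4b itself was counted 6, 20, 5 and 8 times in HFD WT replicates 1 to 4 and 33, 10, 9 and 14 times in replicates 1 to 4 labelled HFD Inpp4b-/-. Its counts were not lower in the latter, so each direction given here rests on the library labels. The hepatocyte marker Alb, which encodes serum albumin, had a mean of 54320 CPM in HFD WT and 64200 CPM in the libraries labelled HFD Inpp4b-/-, and Hnf4a, a defining transcription factor of hepatocytes, had 769 and 672 CPM. CPM is the count of a gene scaled to 1000000 normalised counts of its library. In such whole-tissue libraries, fewer cells of a type and less RNA per cell cannot be told apart.

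The endoplasmic reticulum (ER) folds the proteins that a cell secretes or places in its membranes, and the hepatocyte secretes most of the plasma proteins. When unfolded proteins build up there, the sensors IRE1, ATF6 and PERK start the unfolded protein response. IRE1 splices the Xbp1 mRNA into the form that encodes the active transcription factor, ATF6 is cut to release its own transcription factor, and both raise the mRNA of ER chaperones. PERK phosphorylates eIF2alpha, which slows translation in general while the mRNA of Atf4 is translated more. Other eIF2alpha kinases respond to scarce amino acids, to viral RNA and to heme, so ATF4 and its targets such as Ddit3, Trib3 and Asns also answer stresses outside the ER.

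The chaperone genes are textbook targets of the ER stress response element (ERSE), and Asns and Trib3 of the C/EBP-ATF response element (CARE), so the promoters of Hspa5, Hsp90b1, Sdf2l1, Trib3 and Asns are shown to let the letters of these elements be seen beside the values. Each window runs from 250 bases before to 50 bases after the start site annotated by RefSeq on GRCm38.p6, written 5' to 3' on the strand of the gene. Capitals mark the fixed letters of ERSE (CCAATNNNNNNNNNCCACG), its second part CCACG alone, the core TGACGTG of the unfolded protein response element (UPRE) and CARE (TGATGNAA). Each may lie on either strand, so CGTGG is CCACG and TTACATCA the CARE read on the opposite strand. The CCACG in the Asns window is left in lower case.
Hspa5 (chr2:34771840-34772139, + strand): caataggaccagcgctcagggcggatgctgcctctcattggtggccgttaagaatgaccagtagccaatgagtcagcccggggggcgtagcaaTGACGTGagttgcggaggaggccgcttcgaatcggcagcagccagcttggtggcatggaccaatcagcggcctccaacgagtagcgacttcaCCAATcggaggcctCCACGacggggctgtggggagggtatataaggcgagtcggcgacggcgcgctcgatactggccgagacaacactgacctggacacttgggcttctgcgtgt
Hsp90b1 (chr10:86705395-86705694, - strand): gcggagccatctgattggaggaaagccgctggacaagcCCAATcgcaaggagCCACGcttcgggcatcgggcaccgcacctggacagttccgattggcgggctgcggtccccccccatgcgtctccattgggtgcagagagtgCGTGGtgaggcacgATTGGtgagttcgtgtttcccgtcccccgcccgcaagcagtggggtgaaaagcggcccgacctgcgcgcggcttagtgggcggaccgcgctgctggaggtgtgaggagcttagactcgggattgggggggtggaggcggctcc
Sdf2l1 (chr16:17132334-17132633, - strand): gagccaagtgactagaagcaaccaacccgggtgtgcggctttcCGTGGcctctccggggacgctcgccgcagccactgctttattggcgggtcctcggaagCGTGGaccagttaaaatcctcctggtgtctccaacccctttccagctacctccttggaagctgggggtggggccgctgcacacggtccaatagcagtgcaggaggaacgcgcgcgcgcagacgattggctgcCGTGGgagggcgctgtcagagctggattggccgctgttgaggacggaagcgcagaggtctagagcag
Trib3 (chr2:152344011-152344310, - strand): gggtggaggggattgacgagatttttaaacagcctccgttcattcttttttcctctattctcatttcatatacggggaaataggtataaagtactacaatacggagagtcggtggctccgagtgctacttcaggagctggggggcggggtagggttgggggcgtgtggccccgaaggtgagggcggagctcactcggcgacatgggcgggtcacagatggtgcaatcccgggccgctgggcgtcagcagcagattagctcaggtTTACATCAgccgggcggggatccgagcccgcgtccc
Asns (chr6:7693160-7693459, - strand): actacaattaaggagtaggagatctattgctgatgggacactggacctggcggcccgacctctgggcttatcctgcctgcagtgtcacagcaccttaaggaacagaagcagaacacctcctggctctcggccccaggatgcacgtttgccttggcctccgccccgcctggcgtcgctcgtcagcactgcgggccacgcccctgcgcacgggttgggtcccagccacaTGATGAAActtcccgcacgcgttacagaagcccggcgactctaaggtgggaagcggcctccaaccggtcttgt
The full ERSE was in 0.119% of all 32851 RefSeq promoter windows of this length, and of the 10 genes the windows of Hspa5 and Hsp90b1 held it. In Hspa5 its first base lay 65 bases before the start site. Hsp90b1 held it at 212 bases before the start site and, on the opposite strand, at 107 bases before it. The UPRE core was in 2.01% of all windows and, of the 10, in that of Hspa5. CARE was in 3.97% of all windows and in those of Trib3 and Asns, 14 bases after and 23 bases before the start site. CCACG, the second part of the full ERSE, was in 32.8% of all windows and in 7 of the 10, and no window of the 10 held the related ERSE-II (ATTGGNCCACG), which was in 0.0365% of all windows. A match of letters describes the window and does not show binding.

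**Figure D1:**
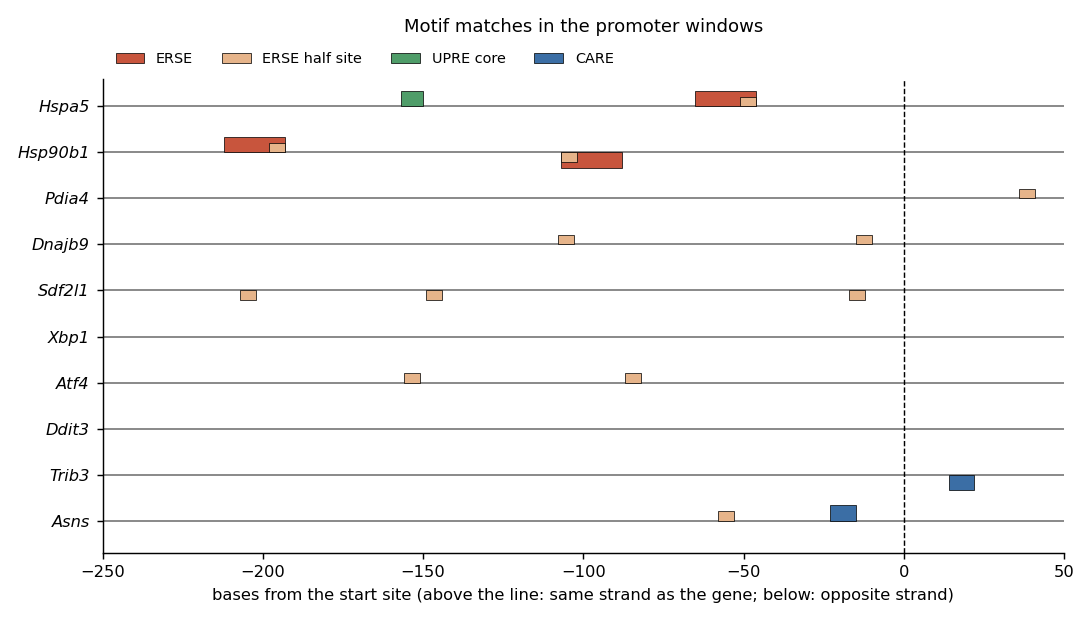
Positions of the motif matches in the promoter windows of the 10 genes, in bases from the annotated start site at 0. Bars above a line are on the strand of the gene and bars below it on the opposite strand. The full ERSE appears in Hspa5 and Hsp90b1, CARE in Trib3 and Asns, and the windows of Xbp1 and Ddit3 hold none of the motifs searched.

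The ER chaperone genes had lower mean levels in the libraries labelled HFD Inpp4b-/- than in HFD WT, by 1.43-fold for Hsp90b1 to 2.38-fold for Sdf2l1, but none passed the thresholds of the study (FDR of 10% and a fold change over 1.3) in edgeR's quasi-likelihood test. Of the ATF4 genes, Asns was lower by 3.44-fold, Atf4 and Ddit3 were within 1.25-fold, and Trib3 was higher by 1.56-fold, and none of them passed either. In all, 9 of the 10 genes were lower and 1 was higher. Their log2 fold changes had a median of -0.58, and those of all genes tested had a median of 0.003, with 50.4% of genes higher. The edgeR test called 0 of the 10 genes, beside 174 of 14866 genes (1.17%), 0.552% of them higher and 0.619% lower. An unadjusted p under 0.05 was reached by 5 of the 10 (Hspa5, Hsp90b1, Pdia4, Sdf2l1 and Asns) and by 2072 of all 14866 genes tested. With DESeq2, the tool of the study, 3 of the 10 passed the same thresholds (Hspa5, Sdf2l1 and Asns), beside 4.04% of genes. The study also required a call from reads aligned with STAR. Those were not examined here, so its full criterion was not applied. The groups overlapped in CPM for each of the 10 genes. Among all genes tested they did not overlap for 8.72%, and 0 of 10 is close to that share.

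**Figure D2:**
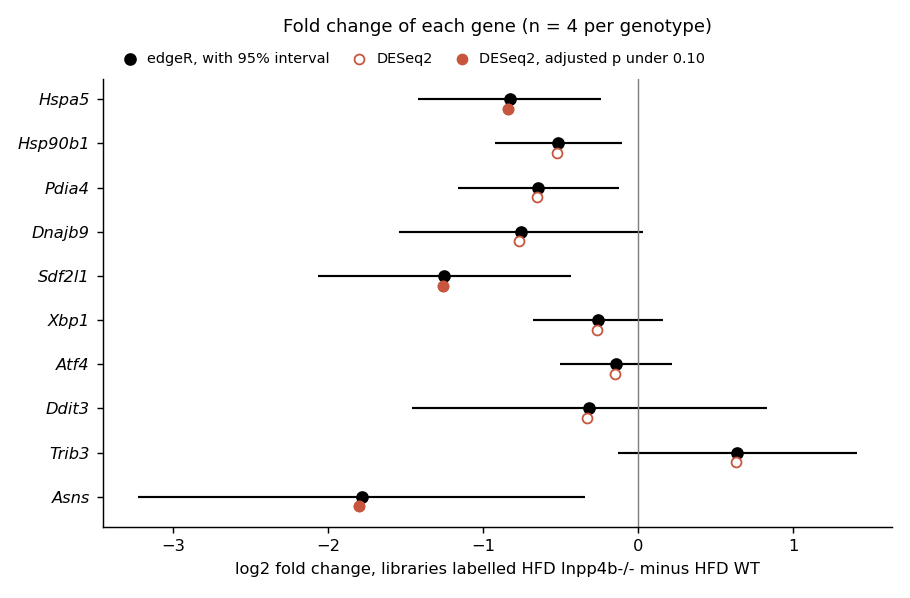
Log2 fold change of each gene, libraries labelled HFD Inpp4b-/- minus HFD WT (n = 4 per genotype). Black points and lines are the edgeR values with 95% intervals, and circles are the DESeq2 values, filled where the DESeq2 adjusted p was under 0.10. The intervals of Hspa5, Hsp90b1, Pdia4, Sdf2l1 and Asns lie below 0, and 9 of the 10 points are negative.

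Hspa5 (ENSMUSG00000026864, chromosome 2 from 34771970 to 34777547) encodes BiP, the HSP70 chaperone of the ER that also holds the stress sensors inactive. Its CPM was 1552, 839, 1370 and 2281 in HFD WT replicates 1 to 4, and 932, 1008, 796 and 667 in replicates 1 to 4 labelled HFD Inpp4b-/-. HFD WT replicates 1, 3 and 4 were above every library labelled HFD Inpp4b-/-, and HFD WT replicate 2 lay among them. The mean was 1510 CPM ± 596 (SD, n = 4) in HFD WT and 851 CPM ± 151 (SD, n = 4) in the other group. On the log2 scale the fold change was -0.83 ± 0.26 (SE), with a 95% interval from -1.42 to -0.24 and an edgeR adjusted p of 0.213. The adjusted p from DESeq2 was 0.0474.

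Hsp90b1 (ENSMUSG00000020048, chromosome 10 from 86690209 to 86705509) encodes GRP94, the HSP90 chaperone of the ER. Its CPM was 712, 438, 617 and 829 in HFD WT and 481, 511, 456 and 372 in the libraries labelled HFD Inpp4b-/-, in the order of the replicates. The same 3 HFD WT libraries stood above the other group, and replicate 2 lay below 3 of its 4 libraries. The log2 fold change was -0.51 ± 0.18 (SE, n = 4 per genotype), with an adjusted p of 0.263 in edgeR and 0.133 in DESeq2. Its exons share 415 of 4032 bases with a pseudogene on the opposite strand, 1810014B01Rik, and the strand setting of the counting is not given in the sources used here.

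Pdia4 (ENSMUSG00000025823, chromosome 6 from 47796141 to 47813430) encodes a protein disulfide isomerase, which forms and rearranges disulfide bonds. It was at 285, 212, 306 and 487 CPM in HFD WT and at 233, 245, 178 and 171 CPM in the libraries labelled HFD Inpp4b-/-. HFD WT replicate 2 was again the low HFD WT library, between the lower and the upper pair of the other group. This gave a log2 fold change of -0.64 ± 0.23 (SE), with an edgeR adjusted p of 0.266. It was -0.37 without HFD WT replicate 4.

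Dnajb9 (ENSMUSG00000014905, chromosome 12 from 44205559 to 44210326) encodes ERdj4, a J-domain cochaperone of BiP that also acts on IRE1. It had 126, 65.2, 102 and 210 CPM in HFD WT and 62.1, 116, 69.9 and 49.2 CPM in the libraries labelled HFD Inpp4b-/-. It overlapped more than the other chaperones, since replicate 2 of the latter group was above HFD WT replicates 2 and 3. Dnajb9 had a log2 fold change of -0.76 ± 0.35 (SE), its 95% interval reached from -1.54 to 0.03, and the edgeR adjusted p was 0.379. Without HFD WT replicate 4 the value was -0.39.

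Sdf2l1 (ENSMUSG00000022769, chromosome 16 from 17130138 to 17132383) encodes an ER protein that works with BiP and its J-domain partners. Its CPM was 64.3, 33.3, 77.9 and 129 in HFD WT and 40.4, 39.0, 28.5 and 20.3 in the libraries labelled HFD Inpp4b-/-. HFD WT replicates 1, 3 and 4 were above all libraries of the other group, and 2 of those libraries were below every HFD WT library. The mean was 76.2 CPM ± 40.1 (SD, n = 4) in HFD WT and 32.1 CPM ± 9.45 (SD, n = 4) in the other group. Its log2 fold change was the most negative of the 5 chaperones at -1.25 ± 0.37 (SE), with a 95% interval from -2.07 to -0.43. The adjusted p was 0.189 in edgeR and 0.0161 in DESeq2.

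**Figure D3:**
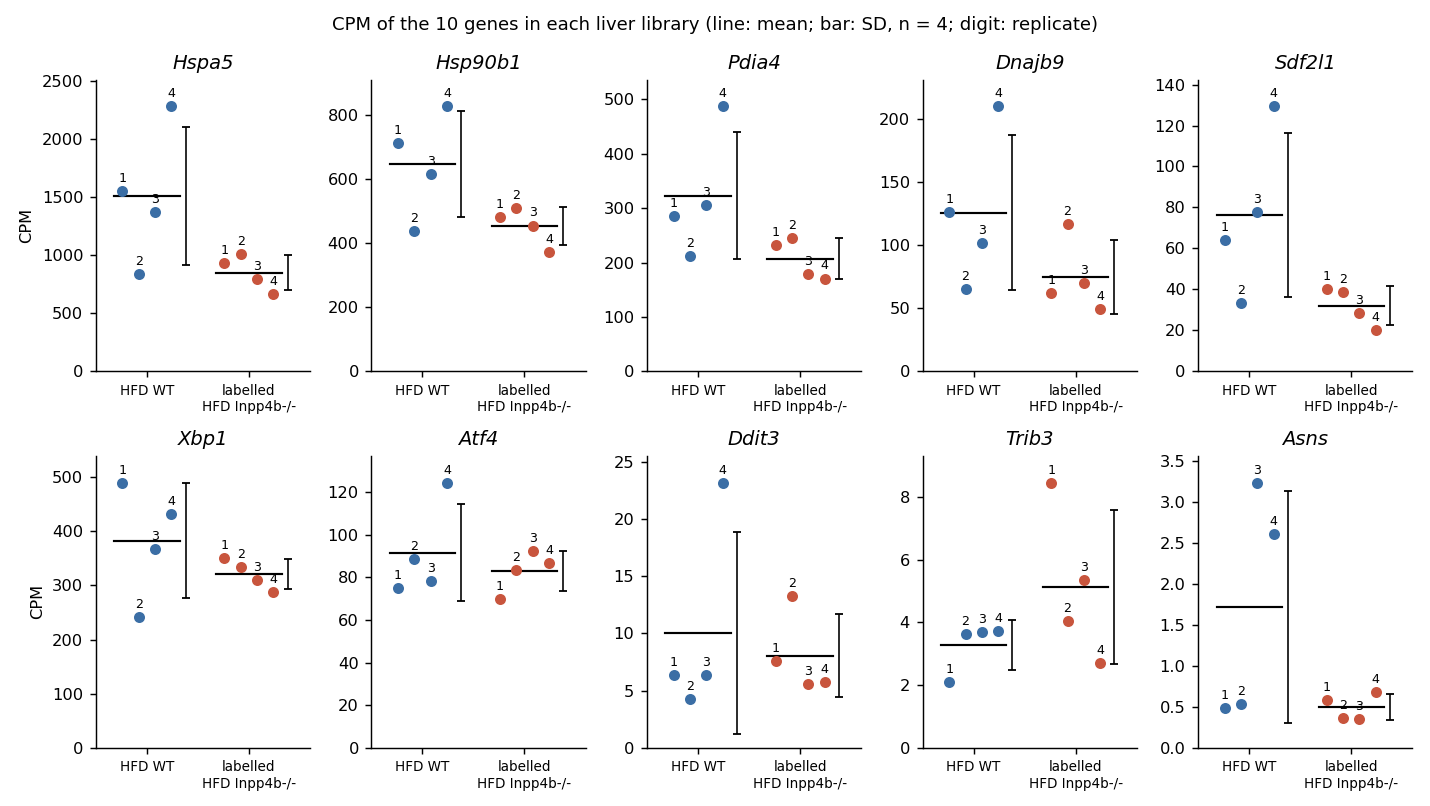
CPM of each of the 10 genes in each library, with an axis from 0 in every panel. Points are libraries with their replicate number, lines are means and bars are SD (n = 4). HFD WT replicate 4 is the highest library for 7 genes (Hspa5 at 2281 CPM and Ddit3 at 23.2 CPM among them), and HFD WT replicate 2 is the lowest HFD WT library for the 5 chaperones, Xbp1 and Ddit3.

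Xbp1 (ENSMUSG00000020484, chromosome 11 from 5520659 to 5525893) encodes the transcription factor made from the IRE1-spliced mRNA, and the counts per gene do not separate its spliced from its unspliced form. It had 490, 242, 368 and 431 CPM in HFD WT and 352, 333, 311 and 287 CPM in the libraries labelled HFD Inpp4b-/-. The HFD WT libraries lay on both sides of the other group, 3 above it and replicate 2 below it. The log2 fold change of -0.26 ± 0.19 (SE) had a 95% interval from -0.67 to 0.16 and an edgeR adjusted p of 0.585. It was -0.11 without HFD WT replicate 1 and -0.43 without HFD WT replicate 2.

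Atf4 (ENSMUSG00000042406, chromosome 15 from 80255184 to 80257541) encodes the transcription factor at the centre of the eIF2alpha branch, whose output is set largely by translation, which counts of mRNA do not show. Its CPM was 74.9, 88.5, 78.5 and 124 in HFD WT and 69.8, 83.3, 92.2 and 86.7 in the libraries labelled HFD Inpp4b-/-. Apart from HFD WT replicate 4, all libraries lay between 69.8 and 92.2 CPM. Its log2 fold change was -0.14 ± 0.16 (SE), with a 95% interval from -0.50 to 0.22 and an edgeR adjusted p of 0.740.

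Ddit3 (ENSMUSG00000025408, chromosome 10 from 127290774 to 127296288) encodes CHOP, a transcription factor linked to cell death under lasting ER stress. Its CPM was 6.34, 4.28, 6.40 and 23.2 in HFD WT and 7.60, 13.3, 5.60 and 5.73 in the libraries labelled HFD Inpp4b-/-. A single library in each group was high, HFD WT replicate 4 and replicate 2 of the other group, and the rest lay between 4.28 and 7.60 CPM. The log2 fold change of -0.31 ± 0.51 (SE, n = 4 per genotype; edgeR adjusted p = 0.828) was positive, at 0.51, without HFD WT replicate 4, and that of Atf4 was then 0.04. The exons of Ddit3 share 68 of 1713 bases with Mars on the opposite strand and 105 bases with a second gene model of the same symbol.

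Trib3 (ENSMUSG00000032715, chromosome 2 from 152337422 to 152344032) encodes a pseudokinase that binds ATF4 and AKT, and it was the 1 gene of the 10 with a higher mean in the libraries labelled HFD Inpp4b-/-. It had 2.10, 3.62, 3.71 and 3.73 CPM in HFD WT and 8.46, 4.05, 5.34 and 2.70 CPM in the other group. In that group, replicates 1, 2 and 3 were above every HFD WT library and replicate 4 was within the HFD WT range. Trib3 had a log2 fold change of 0.64 ± 0.34 (SE, n = 4 per genotype), with a 95% interval from -0.13 to 1.41 and an edgeR adjusted p of 0.443. It was 0.29 without replicate 1 labelled HFD Inpp4b-/-.

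Asns (ENSMUSG00000029752, chromosome 6 from 7675169 to 7693254) encodes asparagine synthetase and had few reads, with 13, 17, 96 and 68 counts in HFD WT and 21, 14, 11 and 24 counts in the libraries labelled HFD Inpp4b-/-. These correspond to 0.479, 0.535, 3.23 and 2.61 CPM and to 0.583, 0.368, 0.354 and 0.674 CPM. HFD WT replicates 3 and 4 were the high libraries, and HFD WT replicates 1 and 2 lay within the range of the other group. For Asns the log2 fold change was -1.78 ± 0.64 (SE), with a 95% interval from -3.22 to -0.34. The adjusted p was 0.266 in edgeR and 0.0897 in DESeq2.

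As a test of each gene that does not borrow from other genes, the difference in mean log2 CPM was set against all 70 arrangements of the 8 libraries. The smallest p that the two-sided exact permutation test can give here is 0.0286. A p under 0.05 is reached only when the groups do not overlap. The groups overlapped for each of the 10 genes, so 0 of the 10 could have a p under 0.05. This count therefore restates the overlap and is not separate evidence. The lowest value, an exact permutation p of 0.0857, was shared by Hspa5, Pdia4 and Sdf2l1. Leaving out HFD WT replicate 2 was the setting that changed the calls in edgeR. Without it, Hspa5 (adjusted p = 0.0628), Hsp90b1 (adjusted p = 0.0747) and Sdf2l1 (adjusted p = 0.0591) passed the edgeR thresholds, beside 2.26% of the genes then tested. Every library labelled HFD Inpp4b-/- was then below every HFD WT library for Hspa5, Hsp90b1, Pdia4, Sdf2l1 and Xbp1, as for 7.38% of all genes tested (15.5% in either direction). HFD WT replicate 2 was the lowest HFD WT library for these genes.

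Levels of different genes were compared after division by the exon length of each gene. The mean over the 8 libraries was 279 CPM per kb for Hspa5, 137 for Hsp90b1, 110 for Pdia4 and 108 for Xbp1. Sdf2l1 (48.9 CPM per kb), Dnajb9 (39.2 CPM per kb) and Atf4 (37.0 CPM per kb) formed the middle of the order. Ddit3 (5.29 CPM per kb), Trib3 (1.98 CPM per kb) and Asns (0.404 CPM per kb) were the lowest. Neighbours in this order overlapped in their ranges over the libraries, except that every library had more Atf4 (29.6 CPM per kb or more) than any had Ddit3 (13.5 CPM per kb or less). These ranges were compared across libraries, and an overlap does not show that the order of neighbours changed within a library.

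The 10 genes also differed in how far the libraries of 1 genotype were spread. The highest HFD WT library was 2.72 times the lowest for Hspa5, 3.89 times for Sdf2l1, 5.42 times for Ddit3 and 6.75 times for Asns, beside a median of 1.51 over the 14688 tested genes with a read in every library. Atf4 (1.66), Hsp90b1 (1.89) and Xbp1 (2.02) were nearer to that median. Among the libraries labelled HFD Inpp4b-/-, the same ratio was 1.51 for Hspa5, 1.99 for Sdf2l1, 2.37 for Ddit3 and 1.90 for Asns, beside a median of 1.40. There Hsp90b1 (1.37), Atf4 (1.32) and Xbp1 (1.22) were below the median. For 9 of the 10 genes the ratio was larger in HFD WT, and for Trib3 it was larger in the other group (1.77 and 3.14). The median over all these genes was also larger in HFD WT, and the share of them with a larger ratio there was not counted. This difference in spread was described and was not tested.

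The chaperones followed each other from library to library. Over the 8 libraries, log2 CPM of Hspa5 correlated with that of Hsp90b1 (Pearson's r = 0.99, exact permutation p = 4.96e-05; Spearman's rho = 0.976, exact permutation p = 0.000397), and r was 0.982 after each genotype was centred on its own mean. The exact permutation p-values were adjusted by Benjamini-Hochberg over the 13 relations computed with Hspa5. Pearson's r and its adjusted exact permutation p were 0.972 and 0.000645 for Pdia4, 0.98 and 0.00086 for Sdf2l1, 0.937 and 0.00274 for Dnajb9, and 0.816 and 0.0275 for Xbp1. Spearman's rho for the same genes was 0.976, 0.952, 0.881 and 0.881. After centring on each genotype, r was 0.951 for Pdia4, 0.962 for Sdf2l1, 0.923 for Dnajb9 and 0.844 for Xbp1. Without the 2 libraries farthest from the median of Hspa5, HFD WT replicates 1 and 4, r was 0.984 for Hsp90b1, 0.973 for Pdia4, 0.989 for Sdf2l1, 0.802 for Dnajb9 and 0.663 for Xbp1.

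The ATF4 genes did not pass the adjusted test of this relation. Pearson's r with Hspa5 was 0.41 for Atf4, 0.677 for Ddit3, -0.24 for Trib3 and 0.642 for Asns, with adjusted exact permutation p-values of 0.378, 0.101, 0.614 and 0.119. Spearman's rho was -0.119, 0.69, -0.095 and 0.31. After centring on each genotype, r was 0.336 for Atf4, 0.884 for Ddit3, 0.158 for Trib3 and 0.409 for Asns. Without the 2 farthest libraries r was 0.347 for Ddit3 and 0.687 for Asns, and its sign turned for Atf4 (-0.486) and Trib3 (0.163).

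**Figure D4:**
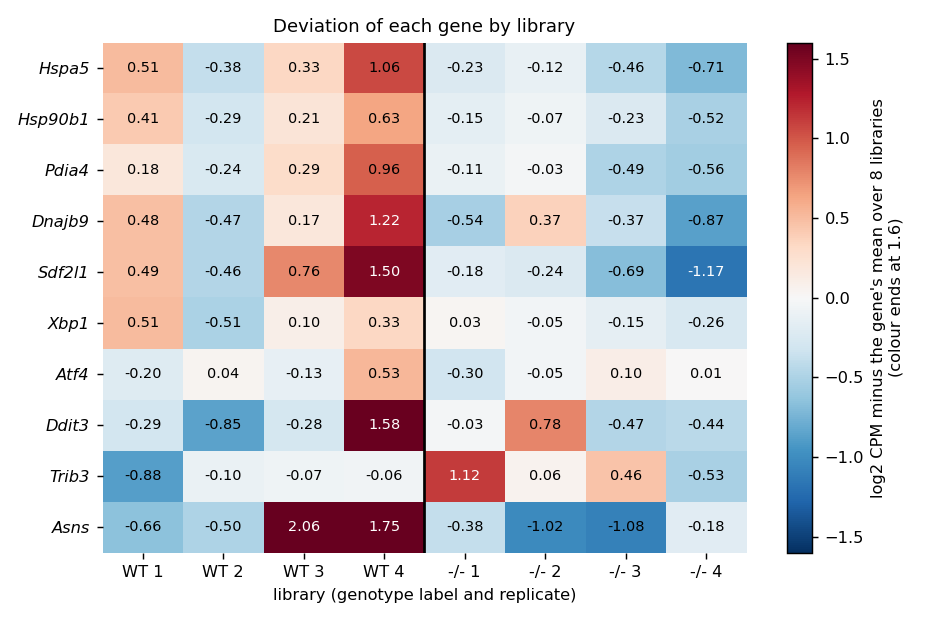
Log2 CPM of each gene minus its mean over the 8 libraries, with genes in rows and libraries in columns. Red is above and blue below the mean. The 5 chaperones and Xbp1 are above their means in HFD WT replicates 1, 3 and 4 and below them in HFD WT replicate 2, whereas Asns is high in HFD WT replicates 3 and 4 (2.06 and 1.75) and Trib3 is highest in replicate 1 labelled HFD Inpp4b-/- (1.12).

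Genes of the same pathways were then counted. Of the 192 genes tested across 13 lists, edgeR called 3 (1.56%, beside 1.17% of all genes), and none of these was among the 10 genes. The lists hold the 10 genes themselves, 5 of them among the ER chaperones, 1 among the regulators of the unfolded protein response and 3 and 1 in the ATF4 lists. The counts of each list are to be read beside those of all genes. An unadjusted p under 0.05 was reached by 2072 of all 14866 genes tested, and DESeq2 called 4.04% of the genes to which it gave an adjusted p. Among 22 ER chaperones and folding enzymes, 0 were called, 20 were lower and 2 higher, the median log2 fold change was -0.43, 13 had an unadjusted p under 0.05, and DESeq2 called 5, all lower, Hspa5 and Sdf2l1 among them. The largest fold change downward was that of Creld2, an ER protein with disulfide isomerase activity, at 146, 52.5, 99.98 and 302 CPM in HFD WT and 61.5, 77.3, 41.0 and 35.3 CPM in the libraries labelled HFD Inpp4b-/- (log2 fold change -1.48 ± 0.47, edgeR adjusted p = 0.213). The largest upward was that of Fkbp2, a prolyl isomerase, with means of 78.6 and 86.1 CPM and an edgeR adjusted p of 0.686.

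ER-associated degradation, which returns misfolded proteins to the cytosol for the proteasome, had 0 of 15 genes called by edgeR (6 at an unadjusted p under 0.05, and 1 by DESeq2) and a median log2 fold change of -0.22. Its members Derl2 and Derl3, related proteins of the retrotranslocation channel, went opposite ways. Derl2 had means of 123 CPM ± 12.6 in HFD WT and 153 CPM ± 2.26 (SD, n = 4) in the other group, with a log2 fold change of 0.32 and an edgeR adjusted p of 0.166. Derl3 had 10.2, 4.06, 18.9 and 65.9 CPM in HFD WT and 7.35, 11.7, 3.28 and 2.78 CPM in the other group, with a log2 fold change of -1.97 and an edgeR adjusted p of 0.300. Neither difference passed the threshold.

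Of 20 genes for entry into and export from the ER, 18 were lower, and Sec61a1 was the 1 gene called by edgeR and by DESeq2. An unadjusted p under 0.05 was reached by 9 of the 20. The groups did not overlap for 6 of them, all lower, beside 8.72% of all genes in either direction. The same was seen for 6 of the 20 cytosolic aminoacyl-tRNA synthetases listed below, all lower. It was also seen for 4 lower and 1 higher of the 15 genes of ER-associated degradation. Among the 22 ER chaperones and folding enzymes it was seen for 1, which was lower. Sec61a1, the pore subunit of the channel through which new chains enter the ER, fell from 182 CPM ± 10.7 to 128 CPM ± 6.06 (SD, n = 4). It was at 192, 167, 185 and 184 CPM in HFD WT and at 127, 136, 125 and 122 CPM in the libraries labelled HFD Inpp4b-/-, so the groups did not overlap. The log2 fold change was -0.51 ± 0.08 (SE) and the edgeR adjusted p 0.0275. The list as a whole had a median of -0.20, and its largest upward value was that of Kdelr1, a receptor that returns chaperones to the ER, at 0.10.

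Of the 11 sensors and regulators of the unfolded protein response, edgeR called 0, 5 had an unadjusted p under 0.05 and DESeq2 called 2. In this list 10 were lower, and the median was -0.36 on the log2 scale. The outermost were Creb3l2, an ER-bound transcription factor (log2 fold change -0.62, edgeR adjusted p = 0.263), and Tmbim6, an ER membrane protein that restrains cell death (0.14, edgeR adjusted p = 0.490). The eIF2alpha kinases, phosphatases and eIF2B subunits were nearer to 0, with 0 of 13 called by edgeR or DESeq2, 3 at an unadjusted p under 0.05 and a median of -0.13. Ppp1r15a, the stress-induced subunit that leads the phosphatase to eIF2alpha, had a log2 fold change of -0.52 (edgeR adjusted p = 0.370), and Eif2ak2, the kinase that senses viral RNA, had 0.18 (edgeR adjusted p = 0.673).

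The ATF4 lists were divided in direction. Of 16 ATF4 transcription factors and effectors, 7 were higher and 9 lower, around a median of -0.14 on the log2 scale. Neither edgeR nor DESeq2 called any, and 0 had an unadjusted p under 0.05. Fgf21, the liver hormone of fasting and of amino acid stress, had 2.99, 0.976, 4.89 and 5.68 CPM in HFD WT and 6.99, 15.1, 5.82 and 4.18 CPM in the libraries labelled HFD Inpp4b-/- (log2 fold change 1.15 ± 0.52, edgeR adjusted p = 0.370). Nupr1, a stress-induced nuclear protein, had a log2 fold change of -0.86 (edgeR adjusted p = 0.618), with 6.91 CPM in HFD WT replicate 4 and 0.664 to 1.68 CPM in the other HFD WT libraries.

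Of 16 ATF4 genes of amino acid synthesis and uptake, 5 were higher and 11 lower, and the median was -0.22. Here edgeR called 0, DESeq2 called 2, and 5 had an unadjusted p under 0.05. Cth, the enzyme that makes cysteine from cystathionine, had the largest upward value, with means of 96.5 and 124 CPM and an edgeR adjusted p of 0.690. Slc1a5, a glutamine transporter, had means of 3.09 CPM ± 1.11 and 1.25 CPM ± 0.778 (SD, n = 4) and passed DESeq2 (adjusted p = 0.0926) but not edgeR (adjusted p = 0.266). The cytosolic aminoacyl-tRNA synthetases, which charge tRNAs with amino acids, had 0 of 20 called by edgeR, 1 by DESeq2, 8 at an unadjusted p under 0.05, 16 lower and a median of -0.16. Farsa, a subunit of phenylalanyl-tRNA synthetase, had -0.41 (edgeR adjusted p = 0.181), and Cars, which charges cysteine, had 0.09 (edgeR adjusted p = 0.892).

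**Figure D5:**
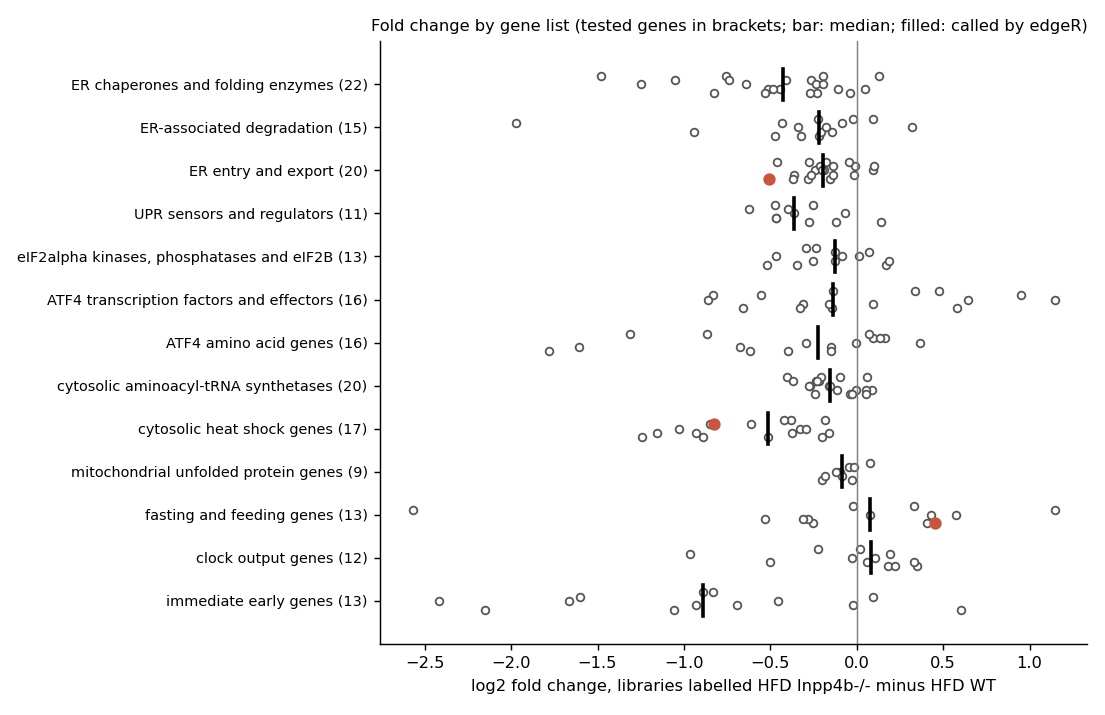
Log2 fold change of every tested gene in the 13 lists, libraries labelled HFD Inpp4b-/- minus HFD WT. Circles are genes, black bars are medians, and filled points are the genes called by edgeR, Sec61a1 and Hsp90aa1 among them. The medians of the lists for the ER chaperones (-0.43), the cytosolic heat shock genes (-0.51) and the immediate early genes (-0.89) lie farthest below 0.

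Gene groups outside the ER were read in the same libraries. The cytosolic heat shock genes, chaperones of the cytosol that heat shock factor 1 drives, were lower in 17 of 17 genes. Their median was -0.51 on the log2 scale, 10 had an unadjusted p under 0.05, and DESeq2 called 4, all lower. Taken singly, the groups did not overlap for 3 of the 17, all lower, beside 8.72% of all genes in either direction. The summed level of the 17 was 5745, 4636, 4125 and 7827 CPM in HFD WT and 3376, 4118, 3613 and 3854 CPM in the libraries labelled HFD Inpp4b-/-. The groups did not overlap in this sum, by a narrow margin (4125 and 4118 CPM). The lowest HFD WT library of this sum was replicate 3, not replicate 2. Hsp90aa1, the stress-induced HSP90 of the cytosol, was the called gene and fell from 444 CPM ± 109 to 250 CPM ± 32.9 (SD, n = 4; log2 fold change -0.83 ± 0.17, edgeR adjusted p = 0.0782). It was not called without HFD WT replicate 1, without any single library labelled HFD Inpp4b-/-, or with a replicate block in the model. The call of Sec61a1 was lost without replicate 3 labelled HFD Inpp4b-/- and with the replicate block. Hspa1a, a stress-induced HSP70, had the largest downward value of -1.25 (edgeR adjusted p = 0.555), and its reads cannot be assigned with certainty because Hspa1b is a near-identical copy.

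The summed heat shock level correlated with Hspa5 over the 8 libraries (Pearson's r = 0.841, exact permutation p = 0.0101, adjusted 0.0262; Spearman's rho = 0.714, exact permutation p = 0.0576, adjusted 0.125). Without HFD WT replicates 1 and 4 r was 0.182, so the relation rests on those libraries. The immediate early genes, which answer to a stimulus within minutes, had 11 of 13 genes lower, a median log2 fold change of -0.89, 0 called by edgeR, 2 called by DESeq2 (1 in each direction) and 5 at an unadjusted p under 0.05. Their sum was 289, 161, 164 and 630 CPM in HFD WT and 175, 159, 234 and 184 CPM in the other group, with the highest value in HFD WT replicate 4. Its Pearson's r with Hspa5 was 0.756 (exact permutation p = 0.0297, adjusted 0.0551), its Spearman's rho was 0.31 (exact permutation p = 0.462), and r turned to -0.477 without the 2 farthest libraries. Within this list, Gadd45b, a stress-induced growth arrest gene, had a log2 fold change of -2.42 (edgeR adjusted p = 0.184) and Ier2 one of 0.60 (edgeR adjusted p = 0.141). The part of these gene groups in the chaperone values was not tested.

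Feeding state and time of day, which also move ER chaperones in liver, were read through their own genes. Of the 13 fasting and feeding genes, 7 were higher and 6 lower, around a median of 0.08 on the log2 scale. In this list edgeR called 1, which was higher, DESeq2 called 1 higher and 1 lower, and 2 had an unadjusted p under 0.05. Igfbp1, which insulin represses, had 41.6, 5.76, 8.99 and 54.0 CPM in HFD WT and 4.97, 3.13, 7.14 and 3.37 CPM in the other group (log2 fold change -2.57 ± 0.67, edgeR adjusted p = 0.151, DESeq2 adjusted p = 0.0285). The high libraries of Igfbp1 were HFD WT replicates 1 and 4, the highest pair for Hspa5. Summed over the list, the level did not follow Hspa5 (Pearson's r = -0.024, exact permutation p = 0.955; Spearman's rho = -0.095, exact permutation p = 0.84).

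The 12 clock output genes had a median of 0.08 with 8 higher. Of these, edgeR called 0, DESeq2 called 1, and 2 had an unadjusted p under 0.05. Dbp, a transcription factor that cycles with the clock, had a log2 fold change of 0.35 (edgeR adjusted p = 0.268), and Per1, a core clock gene that glucocorticoids also induce, had -0.97 (edgeR adjusted p = 0.137, DESeq2 adjusted p = 0.0071). The mitochondrial unfolded protein genes, a folding response of another organelle, had 0 of 9 called by edgeR or DESeq2, 1 at an unadjusted p under 0.05 and a median of -0.09, between Hspd1 at -0.20 (edgeR adjusted p = 0.342) and Clpx at 0.08 (edgeR adjusted p = 0.811).

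Secretory cells of other kinds are rich in ER chaperones, so their markers were read as well. Of 12 pancreatic acinar markers, Cela1 and Cela2a were in the table and the zymogen genes Prss2, Ctrb1 and Cpa1 were not listed. Of the 10 B and plasma cell markers, 7 were in the table, the plasma cell markers Mzb1 and Tnfrsf17 were not listed, and the sum was 4.48 to 24.9 CPM in HFD WT and 13.7 to 23.6 CPM in the libraries labelled HFD Inpp4b-/-. The 8 Kupffer cell and macrophage markers summed to 50.3 to 150 CPM and 105 to 188 CPM, with 7 of 8 higher, 0 called by edgeR or DESeq2 and 0 at an unadjusted p under 0.05. The sums of the 6 liver endothelial markers, at 105 to 136 CPM and 93.3 to 141 CPM, and of the 6 stellate cell markers, at 190 to 268 CPM and 200 to 264 CPM, overlapped between the groups. The 6 cholangiocyte markers summed to 24.3 to 32.1 CPM and 30.6 to 41.5 CPM. In each of the B and plasma cell, stellate cell and cholangiocyte lists, edgeR called 0 genes and DESeq2 called 1, which was higher, and 2, 3 and 2 genes had an unadjusted p under 0.05. The sums for T cells and for neutrophils were at most 0.945 and 8.33 CPM in any library. Of 6 adipocyte markers, only Pck1, which hepatocytes also express, was in the table. The 5 erythroid markers summed to 114 to 431 CPM and 208 to 346 CPM, with 3 higher and 2 lower. Of these Hba-a2, with means of 3.15 and 0.414 CPM, was called lower, while its near-identical copy Hba-a1, with which it can share reads, had means of 99.8 and 180 CPM and was not called.

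The genes most like Hspa5 and Asns over the 8 libraries were found by ranking Pearson's r of log2 CPM over tested genes whose mean count was 50 or more. For Hspa5 these were Creld2 (r = 0.992), Hsp90b1 (0.99), Nme6 (0.989), Ddx49 (0.989) and Hyou1 (0.988) among 11692 genes. Creld2, Hsp90b1 and Hyou1 encode proteins of the ER lumen, Hyou1 being an HSP70-related chaperone with a mean of 418 CPM in HFD WT and 202 CPM in the libraries labelled HFD Inpp4b-/-. For Asns they included Reep5 (0.953), Abhd8 (0.93), Necap2 (0.923) and Pla2g7 (0.915) among 11693 genes, none of these on the ATF4 lists. The ranking is a description, and with 8 libraries in common its highest values are chosen from many.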

How the data were processed

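Liver total RNA of male mice, 4 HFD WT and 4 labelled HFD Inpp4b-/-, was sequenced by the authors as 150-bp paired-end reads, after rRNA removal per the labels. Per the labels and the methods of the study, reads were aligned to GRCm38 with HISAT2 and counted per gene with HTSeq. The study also aligned the reads with STAR and kept the genes called from both alignments. The HISAT2 counts alone were used here. The deposited counts were raw, and the table held 18095 genes, each detected in every library of at least 1 genotype. The deposited normalised signal is the count divided by a size factor of the library, so the counts were used. Which annotation release and strand setting the counting used is not given in the sources used here.

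Identifiers were matched to GENCODE M21. Counts were fitted over all genes with edgeR 4.0.16 (TMM, filterByExpr, glmQLFit and glmQLFTest, no covariate) in R 4.3.3, and calls required an adjusted p (Benjamini-Hochberg, all genes tested) below 0.10 with a fold change above 1.3. The two-sided exact permutation test used log2 CPM with a prior count of 0.5. DESeq2 1.42.0, other normalisations, filters and thresholds, a replicate block and the removal of single libraries served as alternatives. Depth was 25893430 to 36662531 counts per library. The methods of the study give 4 mice per genotype, and the replicates are taken as separate mice.

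The 10 genes and the gene lists were chosen with earlier results of these data known. The text names the 10 genes, every called gene of the lists, the largest rise and the largest fall of each list among tested genes whose mean count was 50 or more, and the 5 genes most like Hspa5 and Asns. Hyou1, Alb, Hnf4a and the markers serve as checks. The statistical scripts were tested on simulated data. Results for some genes that this rule names are not reported here.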

Additional observations from a re-analysis of the deposited data

Results flagged for a closer look

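In groups of 4 libraries, a library whose gap to the nearest other took a share of the range of the group above Dixon's 95% critical value was taken as far from the rest. This was examined in 98 groups, where chance alone flags about 1 in 20 (4.9 groups), and 5 were found. Ddit3 was at 23.2 CPM in HFD WT replicate 4, while the nearest HFD WT library had 6.4 CPM. Trib3 was at 2.10 CPM in HFD WT replicate 1, below the nearest value of 3.62 CPM. Nupr1 was at 6.91 CPM in HFD WT replicate 4, beside 1.68 CPM in the nearest library. Dbp was at 140 CPM in HFD WT replicate 3, beside 110 CPM. The summed level of the mitochondrial unfolded protein genes was 2019 CPM in replicate 3 labelled HFD Inpp4b-/-, beside 1827 CPM in the nearest library of that group.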

How the results depend on the processing

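Over the 10 genes, alternatives that recompute the log2 fold change kept its direction in 138 of 140 cases, and it turned without HFD WT replicate 4 for Atf4 and Ddit3. Leaving out single libraries gave values from -0.226 to 0.0424 for Atf4 and from -0.667 to 0.509 for Ddit3. DESeq2 called 688 genes, 3 of the 10 (Hspa5, Sdf2l1 and Asns) and 21 listed genes, where edgeR called 174, 0 and 3. At an adjusted p under 0.05, edgeR called 71 genes and 1 listed gene. The libraries carry replicate numbers, but libraries of the same number did not deviate together (r from -0.17 to -0.01, and none was closest to its own number). When the replicate block was added to the model, 26 genes, 0 of the 10 and 0 listed genes were called. Leaving out each library in turn gave 53 to 345 called genes, 0 to 3 of the 10 and 0 to 16 listed genes. An exact permutation p under 0.05, which again requires groups without overlap, was reached by 0 to 5 of the 10. The highest of each came without HFD WT replicate 2, where the log2 fold change of Hspa5 was -1.04, and without HFD WT replicate 4 it was -0.56. The cause of these changes was not tested. Other normalisations and low-count filters called 0 of the 10. The depth behind Asns was 11 to 96 counts per library.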
